A study of Mus musculus with 8 samples.

Results

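The genes described here encode the enzymes that make and recycle glutathione, the glutathione transferases and peroxidases, the peroxiredoxins, the thioredoxins with their reductases and relatives, the glutaredoxins, the superoxide dismutases and catalase. A gene was taken when a probe set of the array listed its symbol alone and the symbol began with Gsta, Gstm, Gstt, Gstk, Gsto, Gstp, Gstz, Mgst, Gpx, Prdx, Txn or Glrx, or was Gclc, Gclm, Gss, Gsr, Sod1, Sod2, Sod3 or Cat. The rule uses symbols and no measured value, and it gave 64 genes of the 18193 on the array with such a probe set. Each gene is read by its brightest probe set, and 54 of the 64 passed the filter on low signal (above the 40th percentile of the array, the filter level, on at least 4 arrays) and were tested among 13274 genes. The other 10 were Gpx5, Gpx6, Gpx8, Gstm6, Gsto2, Gstt1, Gstt3, Gstt4, Mgst1 and Sod3.

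Messenger RNA of whole mouse embryos was read on 1-colour oligonucleotide arrays at 2 stages. The blastocysts, in which an outer epithelium, the trophectoderm, surrounds a fluid-filled cavity and the inner cell mass (embryonic day 4.5, 120 h after human chorionic gonadotropin), and the 8-cell embryos (day 2.5, 66 h) each had 4 arrays. All embryos of both stages were wild-type, of the strain label B6D2F1, and had been collected at the 1-cell stage and cultured in modified KSOM medium at 37 °C under 5% CO2, 5% O2 and 90% N2. The series title concerns the transcription factor AP-2 gamma in tight junction and cavity formation, and no genotype other than wild type enters the comparison used here. Nothing in the labels ties the 4 arrays per stage to separate embryo pools, and the p-values measure only the spread between these arrays, which may be technical. Because whole embryos were read, fewer cells of a type and less RNA per cell cannot be told apart.

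Aerobic metabolism yields superoxide, which the superoxide dismutases turn into hydrogen peroxide. Catalase, the glutathione peroxidases and the peroxiredoxins remove peroxide, the glutathione peroxidases at the expense of glutathione and the peroxiredoxins mostly at the expense of thioredoxin, and both carriers are reduced again with electrons from NADPH. Glutaredoxins remove glutathione from protein thiols, and glutathione transferases attach it to reactive compounds such as the aldehydes left by oxidised lipids. The preimplantation embryo inherits glutathione from the oocyte and is known to be sensitive to oxygen in culture.

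The stage labels were checked against marker genes. The trophectoderm genes Cdx2 and Krt18 differed by 3.78 and 4.51 log2 units (blastocyst minus 8-cell), the inner cell mass gene Sox2 by 4.01 and the oocyte coat gene Zp3 by -3.59. All 6 listed trophectoderm markers were higher in blastocysts, and their summed signal was 73369 to 82518 on the blastocyst arrays and 2997 to 3489 on the 8-cell arrays. The primitive endoderm gene Sox17 was at least 67.7-fold higher, with 8-cell signal set at the filter level because no 8-cell array exceeded it. Of 6 primitive endoderm markers 4 were higher and 2 lower, and of 6 epiblast and inner cell mass markers likewise 4 and 2. The lower ones, named with their values known, were Gata6 and Gata4 (-0.555 and -0.95) and Pou5f1 and Klf2 (-0.90 and -2.32). The part of cell type makeup in the differences below was not tested. Summed signals of markers of cells outside the embryo were low next to the trophectoderm sums. That of 5 cumulus and granulosa genes was 182 to 224 on blastocyst arrays and 186 to 346 on 8-cell arrays. The sum of 5 blood and macrophage genes was 310 to 495 and 329.6 to 437.5, and that of 6 stromal genes 194 to 230.0 and 127.5 to 237. They were not all absent: Cd68, Csf1r and Adgre1, of the blood and macrophage list, and the granulosa marker Foxl2 were above the filter level on every array. The first 3 were not called, and all are named with their values known. Within these sums the stromal marker Thy1 was called higher in blastocysts (111 ± 11.5, against 11.9 ± 7.52 in 8-cell embryos, SD, n = 4 each) and the granulosa marker Foxl2 lower (-0.47, limma adjusted p = 0.0335), and their part in the results was not tested. The stages also differed in control signals and in the form of the deposited values. The difference between 3' and 5' control probes for Actb was 0.82 ± 0.11 log2 units in blastocysts and 2.42 ± 0.19 in 8-cell embryos (SD, n = 4 each), and for Gapdh it was 1.36 ± 0.11 and 2.32 ± 0.26. All values of the 8-cell arrays were deposited with at most 1 decimal, against 0.333% of the blastocyst values. RNA quality and handling therefore cannot be told apart from stage.

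Most of the tested redox defence genes were higher in blastocysts. A gene is called here when limma's adjusted p (Benjamini-Hochberg over the 13274 genes) is under 0.05, and differences (blastocyst minus 8-cell) are in log2(signal + 16) units, each with its standard error (SE). Of the 54 tested genes, 36 (66.7%) were called higher, 9 (16.7%) lower and 9 were not called. Over all tested genes 71.7% were called, 37.5% higher and 34.2% lower. A change of at least 2-fold was called in 27 of the 54 upward, against 25.4% of all tested genes, and in 5 downward, against 20.4%. In 36 of them all 4 blastocyst arrays lay above all 4 8-cell arrays, against 35.3% of all tested genes, and in 6 they lay below, against 31.5%. The median difference was 1.07 in these genes and 0.02 over all tested genes. Gstm2 and Gstt2 passed the filter through the blastocyst arrays alone, so their difference is partly a condition of being tested.

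**Figure D1:**
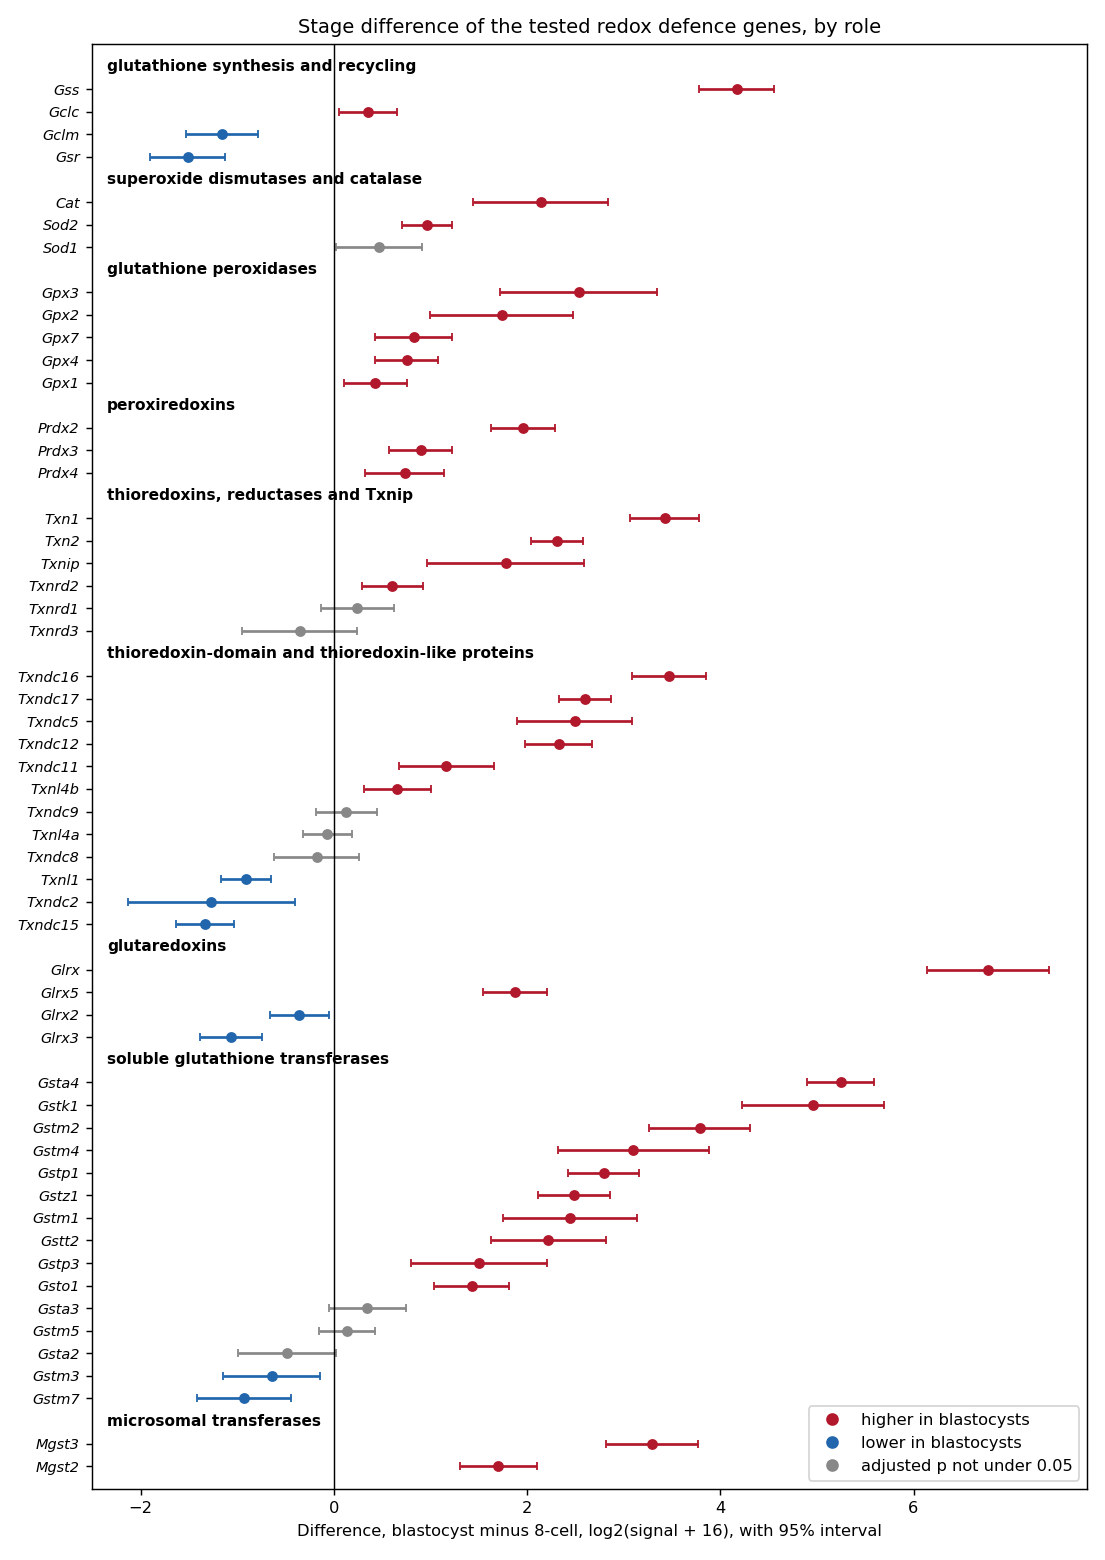
Difference of each tested gene, blastocyst minus 8-cell, in log2(signal + 16) with its 95% interval, grouped by role (n = 4 arrays per stage). Points right of 0 are higher in blastocysts; Glrx lies furthest right at 6.77 and Gsr furthest left at -1.51, and all tested peroxidases and peroxiredoxins lie right of 0.

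In glutathione synthesis and recycling the 4 genes split, 2 higher and 2 lower in blastocysts (37.5% and 34.2% of all tested genes). Gss, the synthetase that carries out the last step by adding glycine, had signals of 2963, 2898, 3364 and 3353 on the blastocyst arrays, against 195, 168, 179 and 108 on the 8-cell arrays. The stages were far apart, and Gss was 18.0-fold higher in blastocysts (difference 4.17, SE 0.17, limma adjusted p = 6.47e-08). Its other probe set gave 4.28.

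The enzyme of the preceding, rate-limiting step, glutamate-cysteine ligase, has a catalytic subunit, Gclc, and a modifier subunit, Gclm, which raises the activity of the catalytic one. Gclm had signals of 523, 334, 469.7 and 569 in blastocysts, against 1067, 1128.5, 1008 and 1031 in 8-cell embryos. Every blastocyst array lay below every 8-cell array, and the difference was -1.16 (SE 0.17, limma adjusted p = 0.000146). The other Gclm probe set gave 0.14 and was not called. Gclc had 627, 622, 638 and 559 in blastocysts, against 408, 552, 427 and 529 in 8-cell embryos. The stages did not overlap but came close to each other, with a difference of 0.35 (SE 0.13, limma adjusted p = 0.0372). That call was lost under 8 of 20 other settings, 5 of them the removal of 1 array (blastocyst replicate 1, 2 or 3, or 8-cell replicate 1 or 3, differences of 0.28 to 0.34), and under quantile normalization, at 0.08, while the other Gclc probe set gave 0.90. Gsr, the reductase that returns oxidised glutathione to its reduced form with NADPH, had 250.1, 207, 192 and 176 in blastocysts, against 608, 468, 779 and 639 in 8-cell embryos. All blastocyst arrays were below all 8-cell arrays, with a difference of -1.51 (SE 0.17, limma adjusted p = 3.14e-05) and -1.47 at its other probe set.

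**Figure D2:**
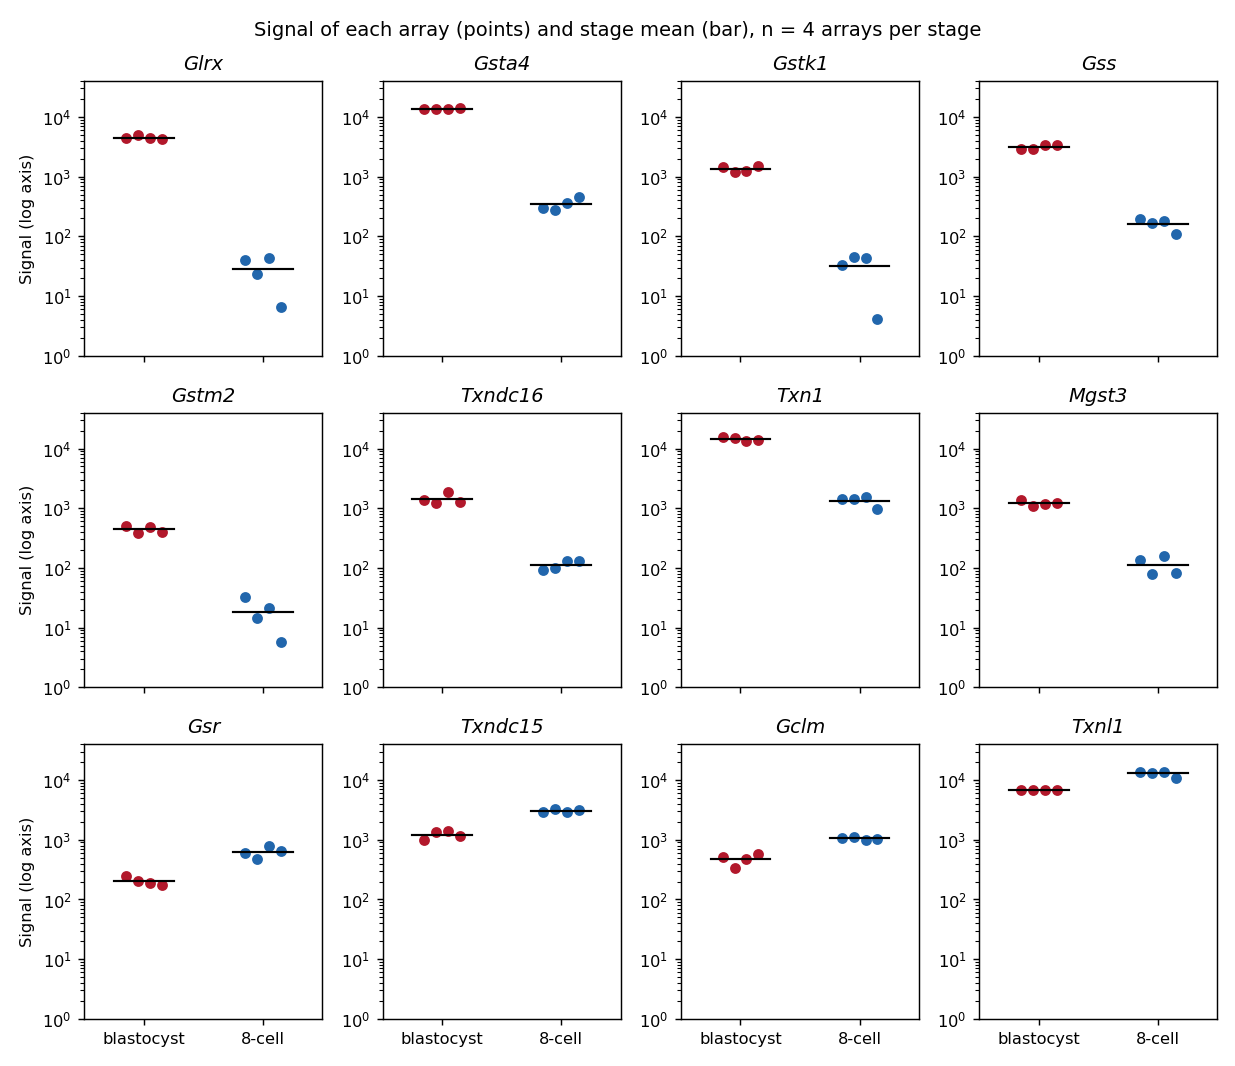
Signal of each array (points, log axis) and the stage mean (bar) for 12 genes, blastocyst left and 8-cell right, n = 4 arrays per stage. The stages do not overlap in any of the 12; the first 8 panels are higher in blastocysts, and Gsr, Txndc15, Gclm and Txnl1 are lower.

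Because Gss and Gclm belong to the same short pathway and moved in opposite directions, sequence before the start of each is given, from RefSeq on GRCm38.p6. RefSeq windows of 250 bases before a transcript start were used, and bases that lie inside the gene as listed were left out of what is printed, which leaves 250 bases for Gss and 180 for Gclm. The Gss window is chr2:155592811-155593060 (minus strand) and the Gclm window chr3:122245307-122245486 (plus strand). Capitals mark matches to either of 2 patterns, searched on both strands: TGACNNNGC, the core of the antioxidant response element bound by NRF2 with small MAF proteins, and GCCNNNGGC, the AP-2 pattern. The printed Gclm sequence holds 1 match to each, with no base in common, and the Gss window none.
Gss: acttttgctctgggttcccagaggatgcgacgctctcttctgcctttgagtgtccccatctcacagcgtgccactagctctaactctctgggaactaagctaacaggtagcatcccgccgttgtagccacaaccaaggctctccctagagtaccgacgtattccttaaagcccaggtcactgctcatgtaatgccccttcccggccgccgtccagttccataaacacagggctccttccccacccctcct
Gclm: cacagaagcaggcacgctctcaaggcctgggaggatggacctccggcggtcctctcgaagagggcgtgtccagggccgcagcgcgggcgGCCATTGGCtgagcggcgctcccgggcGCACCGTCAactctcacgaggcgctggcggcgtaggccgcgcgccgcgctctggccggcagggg
The G and C content of the windows was 56.0% for Gss and 74.4% for Gclm. Among the 57 genes of this set with a window, 10 (17.5%) held the antioxidant response core in any listed 250-base window, against 11.5% of 27025 genes, and 13 (22.8%) held the AP-2 pattern, against 15.4%. A gene can have several windows. Counted by window, the antioxidant core was in 12.7% of 79 windows of the set, against 10.2% of all 32851. The AP-2 pattern was in 17.7%, against 13.7%. The antioxidant core was in windows of 2 of 33 genes called higher, 3 of 7 called lower and 4 of 8 not called, and the AP-2 pattern in 8 of 33, 2 of 7 and 2 of 8. Among the 9 genes not tested, each pattern was found in 1. A match is a description of the letters and not a bound site, and elements further away were not searched.

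Among the enzymes that remove superoxide and its product, catalase showed the largest difference of the 3 tested. Cat, the peroxisomal enzyme that splits hydrogen peroxide, had 1286, 1215, 1691 and 1326 in blastocysts, against 575, 307, 166 and 262 in 8-cell embryos. The 8-cell arrays were spread over a wide range but all lay below the blastocyst arrays, with a difference of 2.14 (SE 0.31, limma adjusted p = 0.000162) and 2.98 at the other probe set. Sod2, the mitochondrial manganese enzyme, had 21846, 21168, 19188 and 19969 in blastocysts, against 10745, 11437, 10566 and 9292 in 8-cell embryos. Its stages did not overlap, the difference was 0.97 (SE 0.11, limma adjusted p = 3.95e-05), and 3 other probe sets were also called higher, at 1.71, 0.63 and 1.30.

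Sod1, the cytosolic copper-zinc enzyme, had 7436, 7356, 6152 and 6672 in blastocysts, against 5628, 3502, 6767 and 4573 in 8-cell embryos. One 8-cell array, replicate 3, lay within the blastocyst range. The difference of 0.47 (95% interval 0.02 to 0.91) was not called (limma adjusted p = 0.0560), and it was called without that array, at 0.62, and under 7 of the other settings. The remaining tested Sod1 probe sets did not give a single direction: 0.43 was called higher, 0.39 was not called and -1.16 was called lower. Sod3, the extracellular enzyme, was below the level on all 8 arrays.

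All 5 tested glutathione peroxidases were higher in blastocysts, against 37.5% of all tested genes. Gpx3, the secreted enzyme found in plasma, had 420.2, 320.0, 258 and 388 in blastocysts, against 85.4, 19.9, 24.4 and 82.4 in 8-cell embryos. Only 2 of its 8-cell arrays were above the level used by the filter, so the difference of 2.53 (SE 0.36, limma adjusted p = 0.000139) depends on the added constant: it was 2.95 with 1 added and 1.85 with 64. Gpx2, known from the gut epithelium, had 427, 266, 141 and 180 in blastocysts, against 57.9, 55.3, 93.4 and 37.7 in 8-cell embryos. The blastocyst arrays were spread widely but stayed above the 8-cell arrays (difference 1.74, SE 0.33, limma adjusted p = 0.000937).

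Changes were smaller in the 3 remaining peroxidases. Gpx4, which reduces lipid hydroperoxides in membranes and is a selenoprotein like Gpx1, had 12920, 12008, 9985 and 11253 in blastocysts, against 7105, 6728, 8032 and 5588 in 8-cell embryos. Its stages did not overlap, with a difference of 0.75 (SE 0.15, limma adjusted p = 0.00106) and 0.78 at the other probe set. Gpx7, an enzyme of the endoplasmic reticulum, differed by 0.82 (SE 0.18, limma adjusted p = 0.00204). Gpx1, the main cytosolic peroxidase, had 13177, 11158, 10586 and 11262 in blastocysts, against 9901, 9692, 7507 and 7346 in 8-cell embryos. The gap between the stages was small, the difference was 0.43 (SE 0.15, limma adjusted p = 0.0227), and the call was lost without blastocyst replicate 1, 8-cell replicate 3 or 8-cell replicate 4 (limma adjusted p = 0.0648, 0.0592 and 0.0561). Of the untested peroxidases, Gpx5, known from the epididymis, had 4.80, 4.94, 5.60 and 5.39 in blastocysts, against 51.3, 69.1, 29.0 and 37.4 in 8-cell embryos, 3 of which were above the level. Gpx6 was below the level on every array, and Gpx8 was above it on 3 blastocyst arrays and on no 8-cell array.

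The Gpx3 promoter window, chr11:54902604-54902853 (plus strand), is shown for comparison with Gclm, since the gene changed in the opposite direction. In it the AP-2 pattern (capitals) lies next to the start of the gene, and the antioxidant response core was not found.
Gpx3: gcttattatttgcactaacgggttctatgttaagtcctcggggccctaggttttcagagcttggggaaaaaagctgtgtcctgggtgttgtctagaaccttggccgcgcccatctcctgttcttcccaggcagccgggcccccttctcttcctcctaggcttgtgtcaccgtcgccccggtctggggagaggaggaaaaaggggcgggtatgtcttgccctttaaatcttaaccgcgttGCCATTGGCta

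The 3 peroxiredoxins with a value were all higher in blastocysts at their brightest probe set, against 37.5% of all tested genes. Prdx2, the cytosolic 2-cysteine enzyme abundant in red cells, had 4228, 5023, 4742 and 5072 in blastocysts, against 1213, 966, 1473 and 1248 in 8-cell embryos. The stages were well separated (difference 1.96, SE 0.15, limma adjusted p = 1.77e-06, and 1.87 at the other probe set). Prdx3, its mitochondrial counterpart, differed by 0.90 (SE 0.14, limma adjusted p = 0.000328) without overlap. Prdx4, the peroxiredoxin of the endoplasmic reticulum, had 4912, 5565, 4540 and 4434 in blastocysts, against 2916, 2126, 3002 and 3835 in 8-cell embryos. This probe set gave 0.73 (SE 0.18, limma adjusted p = 0.00458), but the other Prdx4 probe sets gave 0.19 and -0.18, which were not called, and -1.18, which was called lower. No direction is therefore given for Prdx4 as a gene. Probe sets of Prdx1 list several gene symbols, and no probe set listed Prdx5 or Prdx6 alone, so none of these was analysed here.

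Both thioredoxins were higher in blastocysts, and the reductases moved little. Txn1, the cytosolic thioredoxin, had 15382, 14804, 13172 and 14128 in blastocysts, against 1420, 1450, 1533 and 966 in 8-cell embryos. The stages were far apart at this probe set, with a 10.7-fold difference (3.42, SE 0.16, limma adjusted p = 1.11e-07), whereas a dimmer Txn1 probe set gave -0.03 and was not called. Txn2, the mitochondrial thioredoxin, had 3947, 3598, 3768 and 4099 in blastocysts, against 667, 794, 743 and 860.3 in 8-cell embryos. No array came near those of the other stage (difference 2.31, SE 0.12, limma adjusted p = 1.87e-07), and its other probe sets gave 2.02 and 2.25.

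The mitochondrial reductase Txnrd2 was higher by 0.61 (SE 0.14, limma adjusted p = 0.00332), a call lost with quantile normalization (0.34). Of its other probe sets 1 was called higher (1.497), and the others, at -0.18 and -0.30, were not called. Txnrd1, the cytosolic reductase, differed by 0.24 (95% interval -0.13 to 0.62, limma adjusted p = 0.219), with 0.35 and no call at its other tested probe set. At the brightest probe set Txnrd1 was called at 0.38 without 8-cell replicate 3 (limma adjusted p = 0.0396). Txnrd3, a reductase known from testis, differed by -0.35 (95% interval -0.95 to 0.24, limma adjusted p = 0.252), was called at -0.58 without 8-cell replicate 1 (limma adjusted p = 0.0384), and had another probe set called lower at -0.83. Txnip, the protein that binds and inhibits thioredoxin, had 206, 367, 214 and 653 in blastocysts, against 95.2, 67.8, 124 and 56.6 in 8-cell embryos. Blastocyst replicates 2 and 4 were well above the other pair, and all 4 lay above the 8-cell arrays (difference 1.78, SE 0.36, limma adjusted p = 0.00144).

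The 12 proteins with a thioredoxin domain or a thioredoxin-like fold divided into 6 higher, 3 lower and 3 not called. That is 50% higher and 25% lower, against 37.5% and 34.2% of all tested genes. Txndc16, a protein of the endoplasmic reticulum, had 1385, 1204, 1856 and 1290.4 in blastocysts, against 93.7, 100.6, 132 and 130.5 in 8-cell embryos. It was 11.1-fold higher without overlap (difference 3.47, SE 0.17, limma adjusted p = 1.46e-07). Txndc5, a protein disulfide isomerase, differed by 2.49 (SE 0.26, and 2.85 at its other probe set), Txndc12, an oxidoreductase of the endoplasmic reticulum, by 2.33 (SE 0.16), and Txndc11, which helps fold dual oxidase, by 1.16 (SE 0.22). The cytosolic Txndc17, also called TRP14, differed by 2.60 (SE 0.12, limma adjusted p = 1.11e-07), with 5082.5, 4498, 4257 and 4596 in blastocysts, against 830.5, 655, 786 and 721 in 8-cell embryos. Its other tested probe sets were called higher at 1.45 and 2.07. Txnl4b, a relative of a spliceosome protein, differed by 0.66 (SE 0.15, 0.38 and not called with quantile normalization).

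Of the genes lower in blastocysts, Txndc15 had 1002, 1325, 1377 and 1178 in blastocysts, against 2921, 3332, 2908 and 3172 in 8-cell embryos. Its stages did not overlap (difference -1.33, SE 0.13, limma adjusted p = 1.20e-05). Its other probe set passed the filter through the 8-cell arrays alone (11.6 ± 2.25 in blastocysts, against 91.3 ± 15.95 in 8-cell embryos, SD, n = 4 each). Txndc2, a thioredoxin of sperm, had 7.47, 29.9, 4.42 and 11.2 in blastocysts, against 15.3, 85.9, 74.0 and 54.0 in 8-cell embryos. These are dim signals that overlap between stages (difference -1.27, SE 0.38, limma adjusted p = 0.0136, and -2.10 with 1 added or -0.62 with 64). Txnl1, a thioredoxin-like protein of the proteasome, had 6717, 6882, 6732 and 6942 in blastocysts, against 13756, 13349, 13441 and 11013 in 8-cell embryos. That is a difference of -0.91 (SE 0.11, limma adjusted p = 5.93e-05), and a further probe set was called lower at -0.48. However, another was called higher at 2.70 and the last tested one gave 0.23. Txnl1 therefore has no single direction in these data. The 3 genes not called were Txndc9 at 0.13, Txndc8, another thioredoxin of sperm, at -0.18, and Txnl4a, a spliceosome protein, at -0.07. For Txndc9, which binds a chaperonin, and for Txnl4a another probe set was called lower, at -2.06 and -1.19.

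**Figure D3:**
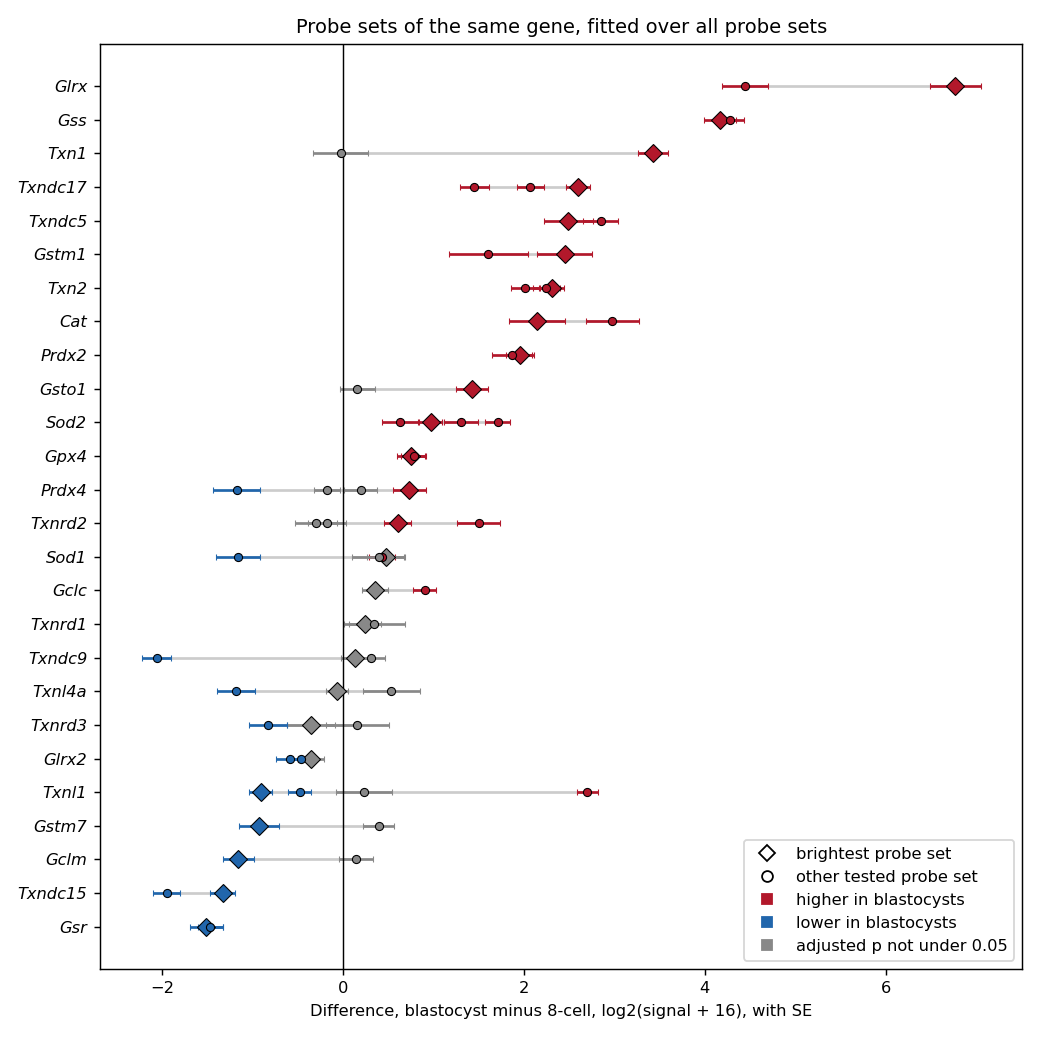
Differences (blastocyst minus 8-cell, log2(signal + 16), with SE) of all tested probe sets of the genes with more than 1, from a fit over 28227 probe sets; diamonds are the brightest probe set of a gene, circles the others. The points of Glrx and Sod2 stay on one side of 0, whereas those of Txnl1 run across it to 2.70 and those of Prdx4 down to -1.18.

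Such disagreement was counted over the whole set. The 64 genes had 120 probe sets, of which 96 were tested in a fit over 28227 probe sets. Of the 42 tested probe sets that were not the brightest of their gene, spread over 26 genes, 23 had the same call as the brightest, 2 had the opposite call (in Txnl1 and Prdx4), 8 were called where the brightest was not, and 9 were not called where the brightest was. In that fit the brightest probe sets of Gclc and Glrx2 missed the threshold (limma adjusted p = 0.0515 and 0.0539). The part of the stage difference in 3' to 5' control signal in this disagreement was not tested.

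The 4 glutaredoxins included the largest difference of the whole set. Glrx, the cytosolic glutaredoxin that strips glutathione from protein thiols, had 4383, 4975, 4429 and 4281 in blastocysts, against 40.2, 23.4, 43.6 and 6.50 in 8-cell embryos. Only 2 of its 8-cell arrays were above the filter level, so the size depends on the added constant. The difference was 6.77 (SE 0.28, limma adjusted p = 6.32e-08), or 109-fold, with 16 added, 7.55 with 1 and 5.65 with 64. Its other probe set passed the filter through the blastocyst arrays alone (636 ± 38.5, against 15.7 ± 12.7 in 8-cell embryos, SD, n = 4 each).

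The remaining glutaredoxins did not follow Glrx as a group. Glrx5, a mitochondrial protein of iron-sulfur cluster assembly, had 6583, 6679, 6123 and 6602.5 in blastocysts, against 1840.0, 1701, 2204 and 1401 in 8-cell embryos (difference 1.87, SE 0.15, limma adjusted p = 2.37e-06). Glrx3, which handles iron-sulfur clusters in the cytosol, had 134, 92.4, 111 and 138 in blastocysts, against 285, 279, 238 and 253 in 8-cell embryos. All blastocyst arrays were lower (difference -1.06, SE 0.14, limma adjusted p = 9.78e-05). Only 1 probe set listed Glrx3 alone, and the Glrx3 probe sets that list several symbols were not analysed here. The value is therefore that of a single dim probe set. Glrx2, the mitochondrial glutaredoxin, differed by -0.36 (SE 0.14, limma adjusted p = 0.0396) with overlapping stages. Its other probe sets were called lower at -0.59 and -0.47. The call at the brightest was lost under 11 of the 19 alternatives that applied, among them the removal of any array but blastocyst replicate 2 or 8-cell replicate 3 (-0.27 to -0.36). With spike-in scaling, also among the 11, the sign turned (0.08).

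The Glrx promoter window is given for the gene with the largest difference. The first of its 2 listed windows is chr13:75839635-75839884 (plus strand), with 48.8% G and C, and neither pattern was found in it.
Glrx: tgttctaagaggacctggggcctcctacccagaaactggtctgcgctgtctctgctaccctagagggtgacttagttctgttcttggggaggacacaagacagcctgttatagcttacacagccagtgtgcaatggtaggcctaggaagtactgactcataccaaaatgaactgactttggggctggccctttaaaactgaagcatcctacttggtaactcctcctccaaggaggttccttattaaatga

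Among the soluble glutathione transferases 10 of 15 tested genes were higher in blastocysts, 2 lower and 3 not called. That is 66.7% higher and 13.3% lower, against 37.5% and 34.2% of all tested genes. Of the 10, Gstm2 and Gstt2 passed the filter through the blastocyst arrays alone. Their difference is partly a condition of being tested, and they are still counted in the 66.7%. Gsta4, the alpha-class enzyme that conjugates the lipid aldehyde 4-hydroxynonenal, had 13835, 13560, 13447 and 13945 in blastocysts, against 304, 280.1, 367 and 454 in 8-cell embryos. The blastocyst arrays were nearly identical and far above the others, a 38.0-fold difference (5.25, SE 0.15, limma adjusted p = 1.43e-08). Gsta2, by contrast, had 64.9, 65.7, 98.3 and 89.1 in blastocysts, against 152.5, 129.8, 129.8 and 69.3 in 8-cell embryos. Replicate 4 of the 8-cell arrays lay among the blastocysts, and the difference of -0.49 was not called (95% interval -0.99 to 0.02, limma adjusted p = 0.0766). Without that array it was -0.70 and called (limma adjusted p = 0.00494). Gsta3 differed by 0.35 and was not called, except without blastocyst replicate 3, where it was 0.48 (limma adjusted p = 0.0264), and under 2 rescalings.

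The kappa, zeta, omega and theta classes had 1 tested gene each, and each was called higher, against 37.5% of all tested genes. Gstk1, the kappa-class enzyme of mitochondria and peroxisomes, had 1448, 1181, 1224 and 1516.5 in blastocysts, against 33.7, 44.6, 43.0 and 4.10 in 8-cell embryos. Replicate 4 of the 8-cell arrays was the lowest, and the stages were far apart (difference 4.96, SE 0.33, limma adjusted p = 7.46e-07), which was 5.77 with 1 added and 3.90 with 64. Gstz1, the zeta-class enzyme of tyrosine breakdown, had 359, 347.5, 392 and 288 in blastocysts, against 65.1, 51.4, 45.0 and 35.3 in 8-cell embryos (difference 2.49, SE 0.16, and 2.82 with 1 added or 1.86 with 64). Gsto1, an omega-class enzyme, differed by 1.43 (SE 0.17), while its other probe set gave 0.16 and was not called. Gstt2, of the theta class, had no 8-cell array above the level, so it passed the filter through the blastocyst arrays alone. It was at least 2.16-fold higher in blastocysts, where its mean was 96.2 ± 42.2, against 7.65 ± 6.89 in 8-cell embryos (SD, n = 4 each).

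The pi class was higher at both tested genes, against 37.5% of all tested genes. Gstp1, the enzyme widely expressed in epithelia, had 8928, 8523, 7727 and 8182 in blastocysts, against 1374, 881, 1443 and 1140.5 in 8-cell embryos. Its stages did not overlap (difference 2.79, SE 0.16, limma adjusted p = 3.89e-07). Gstp3 had 100.1, 111, 89.8 and 93.8 in blastocysts, against 13.1, 16.7, 16.8 and 69.8 in 8-cell embryos (difference 1.5, SE 0.31, limma adjusted p = 0.00171, and 2.07 with 1 added or 0.84 with 64).

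The microsomal transferases, membrane proteins related to an enzyme of leukotriene synthesis, were higher at both tested genes, against 37.5% of all tested genes. Mgst3 had 1351.5, 1095, 1198 and 1205 in blastocysts, against 134, 78.2, 160.5 and 81.9 in 8-cell embryos, without overlap (difference 3.29, SE 0.21, limma adjusted p = 6.47e-07). Mgst2 had 162, 182, 139 and 234 in blastocysts, against 35.9, 51.4, 51.7 and 35.5 in 8-cell embryos (difference 1.70, SE 0.18). Mgst1 was below the level on all 8 arrays.

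The mu-class genes lie together and did not move together. On GRCm38.p6 the 7 genes span chr3:107895854-108045179, 149 kb, in the order Gstm5, Gstm7, Gstm6, Gstm3, Gstm2, Gstm1 and Gstm4, all on the minus strand except Gstm5. The last 3 in this order, neighbours of each other, were higher in blastocysts. Gstm2 had 508, 379.8, 486 and 404 in blastocysts, against 32.3, 14.6, 21.5 and 5.80 in 8-cell embryos. No 8-cell array was above the level, so Gstm2 passed the filter through the blastocyst arrays alone. With 8-cell signal set at that level Gstm2 was at least 9.20-fold higher in blastocysts. The fitted difference was 4.72 with 1 added, 3.79 with 16 and 2.62 with 64. Gstm1 had 237, 129, 179.9 and 212 in blastocysts, against 44.9, 7, 12.7 and 29.6 in 8-cell embryos (difference 2.45, SE 0.31, and 3.23 with 1 added or 1.53 with 64), and its other probe set was called higher at 1.60. Gstm4 had 413, 293, 379 and 407 in blastocysts, against 10.6, 27.9, 81.4 and 20.3 in 8-cell embryos (difference 3.10, SE 0.35, and 3.74 with 1 added or 2.18 with 64). Of the 8-cell arrays, 1 was above the level for each of Gstm1 and Gstm4.

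On the other side of Gstm2 the genes did not share a direction. Gstm7 had 54.5, 64.05, 77.1 and 78.4 in blastocysts, against 109.6, 170.4, 211 and 107.6 in 8-cell embryos, without overlap. Its difference was -0.93 (SE 0.21, limma adjusted p = 0.00322), its other probe set gave 0.39 and was not called, and the call was lost with the mean of its probe sets (-0.27) and with spike-in scaling (-0.55). Gstm3 had 37.6, 46.7, 81.2 and 64.5 in blastocysts, against 69.1, 120.0, 86.5 and 116 in 8-cell embryos. Its stages overlapped, and the call at -0.64 (SE 0.22, limma adjusted p = 0.0257) was lost without either of 2 blastocyst arrays (replicates 1 and 2, -0.50 and -0.58) or either of 2 8-cell arrays (replicates 2 and 4, -0.55 and -0.56). The Gstm3 call was also lost with the mean of its probe sets (-0.24) and with spike-in scaling (-0.28). Gstm5 differed by 0.14 (SE 0.13, 95% interval -0.15 to 0.42). Gstm6, between Gstm7 and Gstm3, was not tested, with 39.4 ± 22.0 in blastocysts, against 9.45 ± 7.31 in 8-cell embryos (SD, n = 4 each). It was above the level on 2 blastocyst arrays and on no 8-cell array. The mu-class genes are close copies, so a probe set named for one may also read another, and values within this class are uncertain for that reason.

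**Figure D4:**
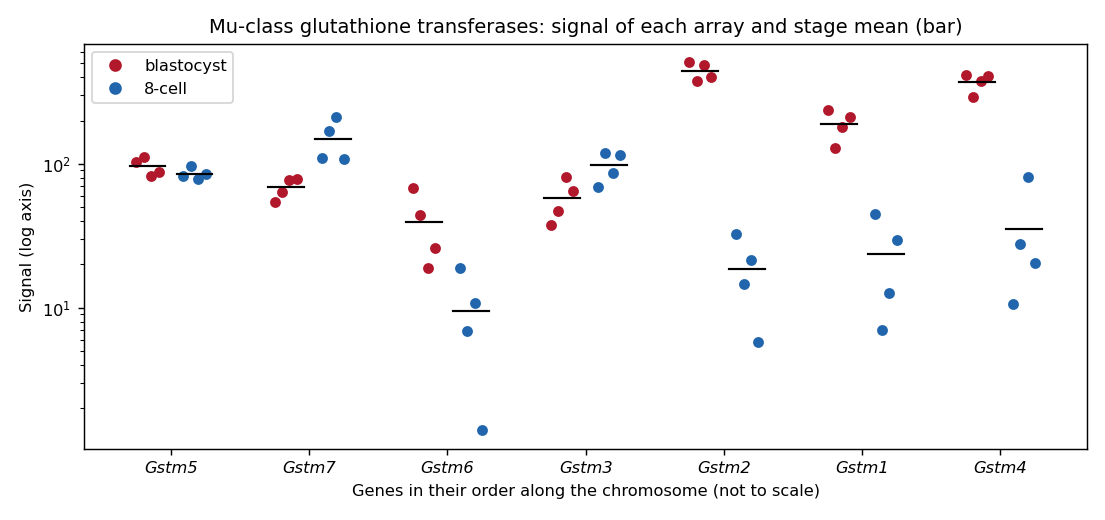
Signal of each array (points, log axis) and stage mean (bar) for the 7 mu-class genes in their order along chromosome 3, blastocyst left and 8-cell right within each gene (n = 4 arrays per stage). Gstm2, Gstm1 and Gstm4 are higher in blastocysts (Gstm2 at least 9.20-fold, the others by 2.45 and 3.10 log2 units), Gstm7 and Gstm3 lower (-0.93 and -0.64), and Gstm6 was not tested.

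The promoter windows of Gstm2, chr3:107986421-107986670 (minus strand), and Gstm7, chr3:107931878-107932067 (minus strand), are shown as members of the same cluster with opposite calls, 250 and 190 bases after bases inside the genes as listed were left out. Neither pattern was found in the sequences printed, whose G and C content was 49.6% and 48.4%. Gstm7 has 2 listed windows, and the other, which lies inside the gene as listed, holds 1 match to the antioxidant response core, which is among the counts given above.
Gstm2: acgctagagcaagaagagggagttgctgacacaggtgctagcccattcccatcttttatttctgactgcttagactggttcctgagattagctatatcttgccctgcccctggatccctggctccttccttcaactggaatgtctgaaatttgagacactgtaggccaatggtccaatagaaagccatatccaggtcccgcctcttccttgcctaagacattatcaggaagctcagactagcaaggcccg
Gstm7: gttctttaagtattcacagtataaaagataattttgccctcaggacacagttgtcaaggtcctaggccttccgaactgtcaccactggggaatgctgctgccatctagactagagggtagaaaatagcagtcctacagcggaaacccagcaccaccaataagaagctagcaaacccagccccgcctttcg

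The genes around these enzymes were read from 7 pathway lists of 91 tested genes, of which 51 were higher, 21 lower and 19 not called (median 0.64, against 0.02 over all tested genes). Over all tested genes 37.5% were called higher and 34.2% lower, which each list below is to be read against. Of the 91, 6 passed the filter through the arrays of a single stage, so their differences are partly a condition of being tested. Anpep, Aoc3 and Ncf1, called lower, passed through the 8-cell arrays. Through the blastocyst arrays passed Mthfd2l (NADPH supply), Chac2 (cysteine supply) and Acox3 (peroxide sources). These are counted as higher below and are named with their values known. NRF2 is the transcription factor that drives many antioxidant genes. Among 10 regulators in its pathway, a list that includes the gene of NRF2 itself, 2 were higher, 5 lower and 3 not called (median -0.50). Nfe2l2, which encodes NRF2, was higher by 2.70 (SE 0.18, limma adjusted p = 8.64e-07). Keap1, the adaptor that holds NRF2 in check, differed by 0.13 and was not called (limma adjusted p = 0.375). The small MAF partners Maff and Mafg were lower, by -2.16 and -2.14.

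Of 11 tested NRF2 target genes outside the enzymes above, 8 were higher, 2 lower and 1 not called (median 1.49). The 2 lower ones, named with their values known, were Fth1 at -0.57 and Cbr1 at -0.52. The transporter Abcc4 differed by 5.83, biliverdin reductase Blvrb by 2.66, haem oxygenase Hmox1 by 1.97 and Srxn1, which repairs overoxidised peroxiredoxins, by 1.49. Nqo1, a quinone reductase, and Slc7a11, the cystine carrier that feeds glutathione synthesis, were too dim to test. Nqo1 averaged 22.7 ± 15.3 in blastocysts and 37.3 ± 19.6 in 8-cell embryos, and Slc7a11 10.9 ± 7.51 and 13.4 ± 11.4 (SD, n = 4 each). In the supply of NADPH 13 of 17 tested genes were higher and 3 lower (median 1.18), led by Aldh1l1 at 3.50 and Idh2 at 3.13, dehydrogenases that yield NADPH, and Pgls at 2.79, of the pentose phosphate pathway. The 3 lower ones were Pgd, Tkt and Rpia, also of the pentose phosphate pathway, at -0.66, -0.61 and -0.63, and they are named with their values known. G6pdx, whose enzyme opens that pathway, had no probe set with its symbol alone and was not analysed here.

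For cysteine supply, transsulfuration and glutathione turnover 11 of 17 tested genes were higher and 3 lower (median 1.43). Cbs, which condenses homocysteine with serine on the way to cysteine, was higher by 5.04 (SE 0.14), and Oplah, which recovers glutamate from glutathione breakdown, by 4.27 (SE 0.25). Anpep, an aminopeptidase of the cell surface, passed the filter through the 8-cell arrays alone and was at least 9.11-fold lower in blastocysts (7.21 ± 4.71, against 425 ± 149.7 in 8-cell embryos, SD, n = 4 each), with blastocyst signal set at the filter level. Cth, the enzyme that follows Cbs, was lower by -1.92 (SE 0.19), and is named with its value known. Among 7 genes that put selenocysteine into proteins such as the glutathione peroxidases, 6 were higher and 1 lower (median 1.10). The lower one, named with its value known, was Trnau1ap at -0.80, and the higher ones were led by Sephs2 at 2.82, Pstk at 2.33 and Eefsec at 2.18.

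Lists with medians near that of all genes followed. Of 21 enzymes of sulfur repair and protein oxidation 8 were higher, 5 lower and 8 not called (median 0.19), with the disulfide isomerase Pdia6 at 3.11, the oxidase Ero1a at 2.22 and the peroxide-sensitive protein Park7 at 2.16. Of 8 tested sources of superoxide and peroxide 3 were higher, 2 lower and 3 not called (median 0.20). Acox3, among the 3 higher, passed the filter through the blastocyst arrays alone. It was at least 1.22-fold higher, with 8-cell signal set at the filter level. Monoamine oxidase Maoa was higher by 3.16, while the amine oxidase Aoc3 and the NADPH oxidase subunit Ncf1 were lower. The last 2 passed the filter through the 8-cell arrays alone and were at least 2.47-fold and 3.40-fold lower, with blastocyst signal set at the filter level. The lists were chosen with earlier results of these data known, so their counts describe these arrays.

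**Figure D5:**
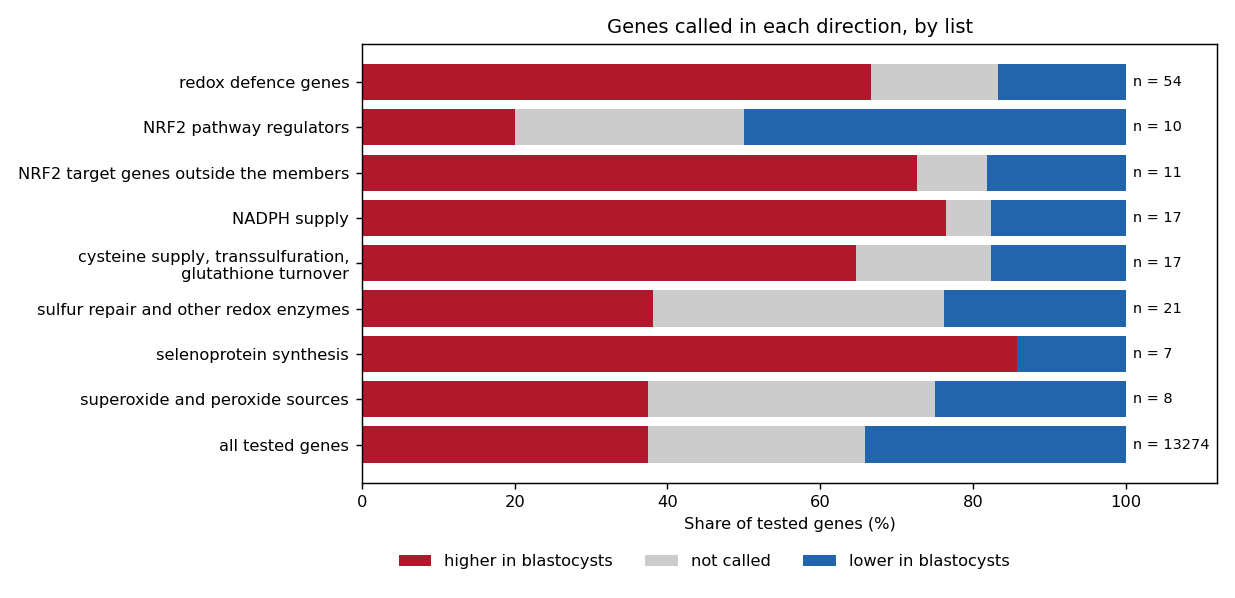
Share of tested genes (%) called higher in blastocysts, not called, or called lower in blastocysts, for the redox defence genes (54 tested), the 7 pathway lists and all 13274 tested genes. Among all genes 37.5% are higher and 34.2% lower, and among the redox defence genes 66.7% and 16.7%. Only the NRF2 pathway regulators, which include Nfe2l2 itself, have more lower than higher genes.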

How the data were processed

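RNA of 4 blastocyst and 4 8-cell samples was isolated with a PicoPure kit, amplified by a small-sample labelling assay and biotin-labelled, per the labels' protocols. The authors deposited linear signal intensity of 45101 probe sets. The values show a common scale: on every array the mean was 500 once 2% had been trimmed at each end. The sources used here name no software. The array number limits the precision, and array medians ran from 47.1 to 56.0.

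Values became log2(signal + 16), with no further scaling. Of the probe sets, 34945 list 1 gene symbol and 932 several, 9160 are unnamed here, and 64 controls were left out. For each gene the brightest probe set was kept, and genes above their array's 40th percentile (the filter level) on at least 4 arrays were tested. A fold given as at least a value sets signals below that level at it, array by array. All 64 genes matched by gene ID to RefSeq on GRCm38.p6. Blastocyst was compared with 8-cell with limma 3.58.1 (lmFit, eBayes) in R 4.3.3 with the data.table package (1.17.8), and Benjamini-Hochberg adjustment at 0.05, after tests on simulated data. Plots used Python 3.11.15, pandas 2.3.3 and matplotlib 3.10.9.

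The gene set and all lists were chosen with earlier results of these data known. Any gene of the set may be named. From each pathway list the 3 called genes with the largest differences are named, with Nfe2l2, Keap1, Slc7a11, Nqo1, Hmox1, Srxn1 and G6pdx, and from the markers Cdx2, Krt18, Sox17, Sox2 and Zp3. Alternatives were quantile, median and spike-in scaling, other filters and added constants, other probe set choices, an intensity trend, array weights, a replicate block and leaving out each array.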

Additional observations from a re-analysis of the deposited data

Results flagged for a closer look

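In 108 groups of 4 arrays (each tested gene at each stage) 5 held an array set apart from the other 3, judged by its gap to the nearest array divided by the range of the group. Chance gives such a gap in about 1 in 20 groups. Glrx5 in blastocyst replicate 3 was low (6123, against 6583 to 6679, gap 0.833 of the range), and so was Prdx3 in blastocyst replicate 4 (1625, against 1830 to 1871, gap 0.841). The remaining 3 were all in 8-cell replicate 4. Gstp3 was high there (69.8, against 13.1 to 16.8, gap 0.889), Txn1 low (966, against 1420 to 1533, gap 0.834) and Txnl1 low (11013, against 13349 to 13756, gap 0.865). All 5 genes kept their call without the array concerned.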

How the results depend on the processing

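Of 20 alternatives, each was run on its own, and the intensity trend went with robust estimation. Over the 54 tested genes they gave 1064 differences, of which 1005 kept their direction and side of the threshold. Scaling to 9 spike-in probe sets shifted the median difference of all tested genes to 0.41, against 0.02, and turned 4978 higher and 4539 lower calls (52.3% higher) into 5824 and 2697 (68.3% higher). In the redox defence genes it gave 39 higher and 5 lower with a median of 1.49, against 36, 9 and 1.07, and in the pathway lists 58 higher and 9 lower, against 51 and 21. It reversed Glrx2 (0.0771), Txndc8 (0.13), Txnl4a (0.37) and Txnrd3 (0.0348), and quantile normalization reversed Txnl4a (0.0415). The median difference of the set was 0.86 without a filter, 1.43 with a filter at the 60th percentile, 0.86 when probe sets were averaged per gene, 1.43 without the IDs ending _x_at, _s_at and _a_at, and 0.91 with 64 added. Averaging the probe sets reversed Prdx4 (-0.11), Sod1 (-0.0322), Txndc9 (-0.54) and Txnl1 (0.37), and leaving out those IDs reversed Txndc9 (-2.06). The cause of these shifts was not tested. Leaving out each array gave 34 to 36 higher and 7 to 9 lower genes in the set, with medians of 1.00 to 1.13. The same replicate numbers do not pair the arrays (correlations of same-numbered deviations -0.035 to -0.024), and with the replicate block 35 genes were higher and 8 lower. In 11 tested genes fewer than 4 arrays of a stage were above the filter level.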
